A study of Arabidopsis thaliana with 8 samples.

Results

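The aquaporins of Arabidopsis thaliana were taken as a fixed family by their locus identifiers: 35 of the 33602 genes in the deposited table, of which 31 had enough reads to be tested. They comprise 13 plasma membrane intrinsic proteins (5 PIP1 and 8 PIP2 genes), 10 tonoplast intrinsic proteins (TIP), 9 NOD26-like intrinsic proteins (NIP) and 3 small basic intrinsic proteins (SIP). RNA came from whole seedlings, 7 days old and kept under 24 h of light, and was extracted with a plant RNeasy kit and sequenced as 100-base read pairs. The 4 genotypes, each with 2 libraries, were Col-0 (wild type, WT), the single mutants cob-6 and sfr6-3, and cob-6sfr6-3, called the double mutant below. cob-6 affects COB, which encodes a membrane-anchored protein of the cell wall needed for ordered cellulose deposition, and sfr6-3 affects MED16, which encodes a subunit of the Mediator complex of transcription. By its title the study identified MED16 as a suppressor of COBRA, so the comparisons ask how each allele alone, and both together, go with aquaporin transcript levels. The labels do not say that replicates were grown separately, so each p-value below measures only the spread between these libraries, which may be technical.

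Aquaporins are channels of membranes that let water, and in some members small solutes such as boric acid, ammonia or hydrogen peroxide, pass along their gradients. PIPs sit in the plasma membrane, where PIP1 proteins are known to work together with PIP2 proteins. TIPs sit in the membrane of the vacuole, the NIPs include the boric acid channels, and SIPs are found in the endoplasmic reticulum. In seedlings, water uptake by the root and the growth of cells by vacuole expansion both draw on PIPs and TIPs.

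Gene sequences were read from RefSeq's TAIR10.1 annotation, because the sources used here give no build for the counts. The 250 bases upstream of the annotated start are shown for the 3 members that were called lower in a comparison, PIP2-4, TIP2-2 and TIP2-3, and for TIP1-1, which holds both motifs searched, with these motifs in capitals. The windows lie at chr5:24377207-24377456 on the minus strand, chr4:9698690-9698939 on the plus strand, chr5:19249623-19249872 on the minus strand and chr2:15445044-15445293 on the plus strand, each 5' to 3' along its gene.
PIP2-4: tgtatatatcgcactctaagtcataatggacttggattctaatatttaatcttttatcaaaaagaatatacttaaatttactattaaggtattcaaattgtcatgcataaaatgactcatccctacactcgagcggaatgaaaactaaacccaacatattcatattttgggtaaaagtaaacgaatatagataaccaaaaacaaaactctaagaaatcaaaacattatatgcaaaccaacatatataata
TIP2-2: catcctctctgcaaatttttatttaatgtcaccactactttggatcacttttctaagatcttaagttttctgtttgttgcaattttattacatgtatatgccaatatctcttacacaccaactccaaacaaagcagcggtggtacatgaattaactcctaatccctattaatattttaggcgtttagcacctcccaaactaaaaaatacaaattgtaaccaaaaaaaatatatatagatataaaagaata
TIP2-3: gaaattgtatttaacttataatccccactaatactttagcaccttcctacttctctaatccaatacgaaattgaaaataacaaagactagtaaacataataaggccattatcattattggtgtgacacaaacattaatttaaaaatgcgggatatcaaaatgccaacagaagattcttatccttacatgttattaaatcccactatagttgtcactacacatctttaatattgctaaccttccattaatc
TIP1-1: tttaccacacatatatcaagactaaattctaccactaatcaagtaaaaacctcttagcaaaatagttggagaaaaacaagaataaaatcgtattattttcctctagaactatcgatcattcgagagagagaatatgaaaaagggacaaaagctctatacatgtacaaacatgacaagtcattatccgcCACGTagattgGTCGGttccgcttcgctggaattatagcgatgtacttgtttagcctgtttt

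The motifs were the abscisic acid response core ACGTG and the CBF binding core CCGAC, searched on both strands in the 300 bases from 250 before to 50 after the start. ACGTG was found in 6 of 35 aquaporin windows (17.1%) and in 26.7% of all 27443 gene windows of that length. CCGAC was found in 4 of 35 (11.4%) and in 15.0% of all windows. PIP2-4 and TIP2-2 held neither, TIP2-3 held ACGTG only after the start, and TIP1-1 held ACGTG and CCGAC at 62 and 51 bases before it. A match is a description of letters in the window, and the letters say nothing here about a factor.

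Closely related members can share reads, and 2 pairs are shown with the bases that differ in capitals, over coding bases 403 to 492 for PIP2-2 and PIP2-3 and 663 to 752 for TIP2-2 and TIP2-3. Each is the unbroken stretch of 90 bases in which its pair differs most, so the whole coding sequences are more alike. The stretches lie at chr2:15614179-15614268 on the minus strand, chr2:15618302-15618391 on the plus strand, chr4:9700160-9700249 on the plus strand and chr5:19248510-19248599 on the minus strand.
PIP2-2: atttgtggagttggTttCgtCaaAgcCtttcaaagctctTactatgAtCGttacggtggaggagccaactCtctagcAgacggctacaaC
PIP2-3: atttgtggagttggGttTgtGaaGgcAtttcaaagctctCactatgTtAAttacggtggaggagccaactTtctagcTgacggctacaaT
TIP2-2: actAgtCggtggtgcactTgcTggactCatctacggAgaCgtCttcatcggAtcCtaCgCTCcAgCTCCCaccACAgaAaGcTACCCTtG
TIP2-3: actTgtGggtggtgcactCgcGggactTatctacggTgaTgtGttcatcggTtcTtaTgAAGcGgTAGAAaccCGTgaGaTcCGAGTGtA

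PIP2-2 and PIP2-3, next to each other on chromosome 2, are 94.8% identical over their coding sequence and share an unbroken run of 242 bases, longer than a read. They were the PIPs with the fewest reads assigned to 1 gene alone, 72.0% for PIP2-2 and 71.7% for PIP2-3, so the split of reads between them is uncertain. TIP2-2 and TIP2-3 are 81.5% identical with a longest shared run of 26 bases, and 100% of the reads of each were unique, so reads of the 2 genes could be told apart.

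The other 7 libraries held between 24011199 and 37744914 gene reads, and the library labelled WT replicate 1 held 324504432. A gene with 3 reads stood at 0.0795 to 0.125 CPM in those 7 libraries and at 0.00924 CPM in WT replicate 1, a floor for counting error only. In uniquely assigned reads, WT replicate 1 had at least the sum of the other 7 libraries for all 25179 genes with a unique read, and exactly that sum for 1178 of them. Of the aquaporins, 32 had a unique read, and 0 fell below the sum and 0 equalled it. WT replicate 1 is therefore not independent of the others, and the counts, the subfamily medians and the members whose call changes are also given without it. The targeted genes went with the labels: COB stood at 36.3 to 43.2 RPKM in the 4 libraries with cob-6 against 77.3 to 122 in the others, and MED16 at 1.46 to 2.11 RPKM in the 4 libraries with sfr6-3 against 5.07 to 8.4. Marker levels were not equal between libraries. The 5 CASP genes, markers of the root endodermis, summed to 39.4 and 34.1 RPKM in cob-6 and 96.0 and 71.0 in sfr6-3. They summed to 57.3 and 71.5 in WT and 52.9 and 56.8 in the double mutant. All 12 root markers, these 5 among them, summed to 81.7 and 72.5 in cob-6 and 154 and 117 in sfr6-3. In WT the 12 summed to 103 and 114, and in the double mutant to 103 and 106. Against WT, 11 of the 12 were lower in cob-6 and 10 were higher in sfr6-3. In the double mutant 7 were higher and 5 lower. The 12 green tissue markers summed to between 26064 and 37789 RPKM. The 11 seed markers summed to 59.6 RPKM in double mutant replicate 2 and to at most 10.4 in the other 7 libraries. Of the 6 pollen markers, 3 were at 0 in all libraries.

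Levels, in deposited RPKM (exon reads per kilobase of exon and per 1e6 gene reads), differed widely over the family, and a few members held most of it. TIP1-2, TIP2-1, PIP2-7 and PIP1-2 together held 66.8% to 73.6% of the summed family level in each library. Aquaporin reads were 0.705% to 1.13% of all gene reads. TIPs held 56.1% to 63.1% of the summed level, PIP1 genes 17.6% to 22.7%, PIP2 genes 17% to 18.9%, SIPs 0.962% to 1.77% and NIPs 0.402% to 0.742%. The family summed to 6619.7 and 9175 RPKM in WT, 6478 and 5699.6 in cob-6, 7629.8 and 5859 in sfr6-3 and 6323 and 6471 in the double mutant. WT replicate 2 was the highest, and the ranges of the other 3 genotypes overlap with each other. In the order of mean levels, PIP2-7 and PIP1-2 at the third and next place were at 691 and 684 RPKM, closer than their spread between libraries.

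**Figure D1:**
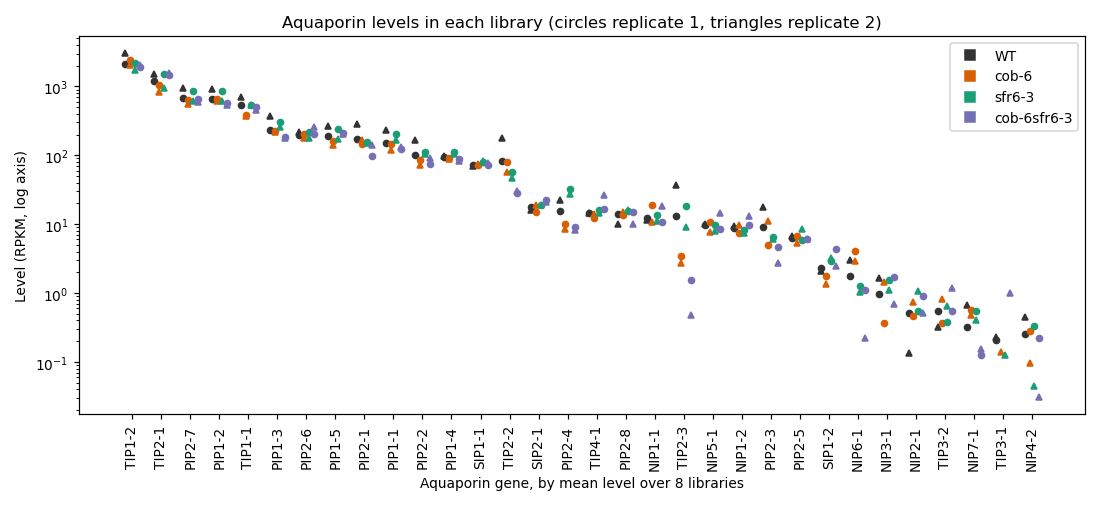
Level of each aquaporin in each library (RPKM, log axis), with genes ordered by their mean over 8 libraries, colours for genotypes and circles or triangles for replicates 1 and 2. Libraries at 0 are not drawn, and 3 genes at 0 in all libraries are left out. TIP1-2 and TIP2-1 lie highest, and TIP2-3 has the widest spread between genotypes among genes above 10 RPKM on average.

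**Figure D2:**
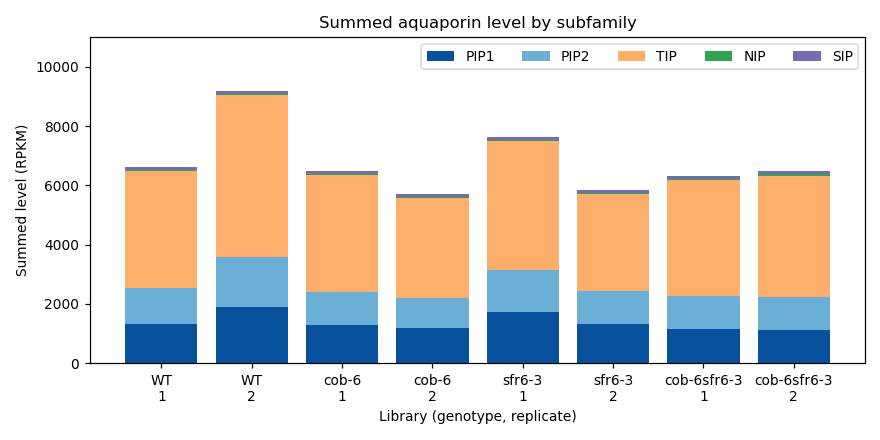
Summed aquaporin level (RPKM) in each library, stacked by subfamily. TIPs make up 56.1% to 63.1% of each bar, and WT replicate 2 is the tallest at 9175.

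TIP1-3, TIP5-1 and NIP4-1 had 0 reads in all 8 libraries and were not tested, and TIP1-3 and TIP5-1 are known as pollen genes. TIP3-1, known as a seed gene, was not tested either. It had 79 reads in WT replicate 1 (0.206 RPKM), 45 in double mutant replicate 2 (1.01 RPKM) and at most 7 in any other library. Double mutant replicate 2 was the library in which the seed markers were highest.

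All 6 comparisons were tested with edgeR's quasi-likelihood test over all 21384 tested genes. P-values had Benjamini-Hochberg adjustment, with a call at an adjusted p below 0.05. This fit, on total gene reads of all 8 libraries after a filter on low counts, is called the main fit below. Against WT, 0 of 31 tested aquaporins were called in cob-6, 0 were called in sfr6-3 and 3 were called lower in the double mutant, beside 0.0889%, 0.131% and 0.846% of all tested genes. Between the mutants, 0 were called in the double mutant against cob-6, where 1.36% of all genes were, and 1 was called lower in the double mutant against sfr6-3, where 0.0748% were. The interaction, here the double mutant minus sfr6-3 on the log2 scale less the same difference of cob-6 and WT, had 0 called aquaporins and 0.0514% called genes.

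At an unadjusted p below 0.05, 0 aquaporins were higher and 11 lower in cob-6 against WT, beside 1.91% and 3.35% of all genes. In sfr6-3 against WT 1 was higher and 4 lower, beside 1.18% and 4.41%, and in the double mutant against WT 2 were higher and 11 lower, beside 6.02% and 8.44%. The double mutant against cob-6 had 6 higher and 4 lower, beside 7.95% and 8.71%, and against sfr6-3 2 higher and 5 lower, beside 7.60% and 6.78%. The interaction had 7 higher and 0 lower, beside 5.09% and 3.99%. DESeq2 called 5, 1, 7, 5, 2 and 0 aquaporins in the 6 comparisons in the same order, beside 0.603%, 0.814%, 3.44%, 4.72%, 2.33% and 0.412% of all genes. The comparisons against WT share the WT libraries, and their values are only given side by side.

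WT replicate 1 decides part of these counts. Without it, edgeR called 9 aquaporins lower in cob-6 against WT, 2 in sfr6-3 and 9 in the double mutant, beside 0.621%, 0.757% and 3.45% of all genes. With all 8 libraries, 49.0%, 49.5% and 47.7% of all tested genes had a log2 fold change below 0 in those 3 comparisons, and of the 31 aquaporins 25, 20 and 19 did. Of the 32 aquaporins tested when a WT library was left out, 27, 23 and 20 were negative without WT replicate 1, and 25, 15 and 18 without WT replicate 2. Leaving out either leaves 1 WT library, so those fits, also for single genes below, hold no spread within WT. Without WT replicate 1 the WT library left is replicate 2, which had the highest aquaporin share of gene reads, 1.13%.

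**Figure D3:**
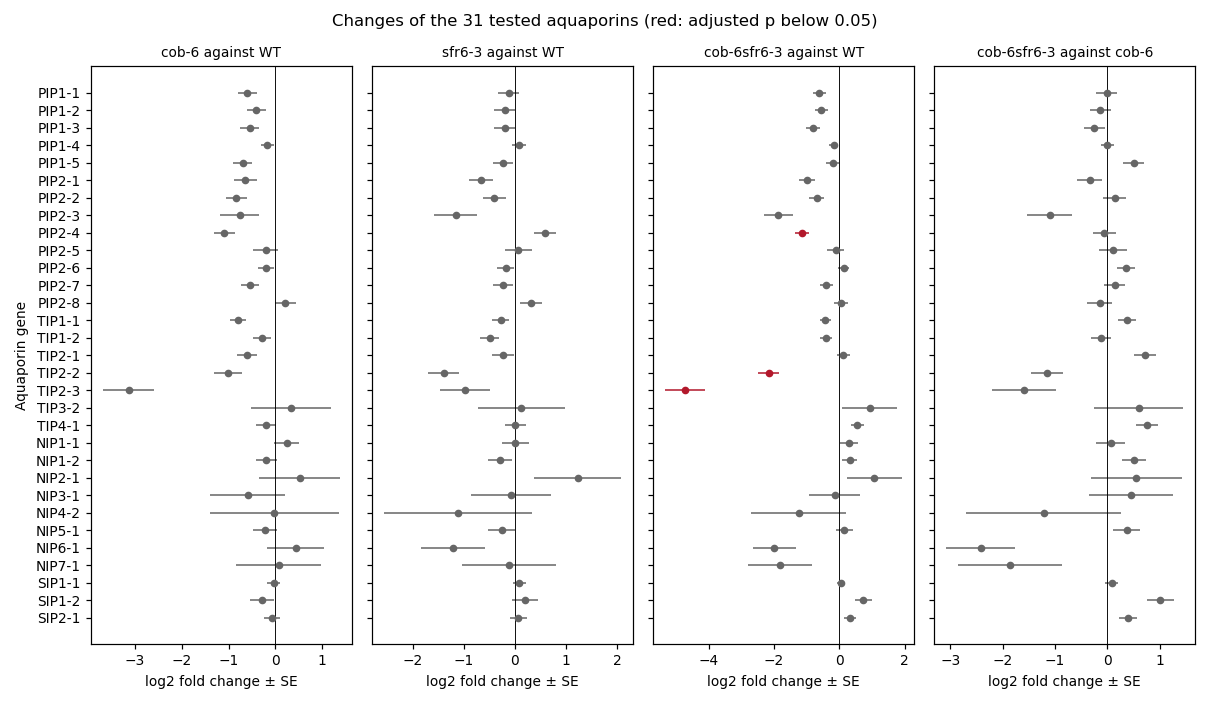
Log2 fold change with its standard error for the 31 tested aquaporins in 4 comparisons, with called genes in red and each panel on its own horizontal axis. Red points appear only in the double mutant against WT, for PIP2-4, TIP2-2 and TIP2-3.

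Most PIPs had lower levels in cob-6 and the double mutant than in WT, and the main fit called 1 of them, PIP2-4 in the double mutant. Without a filter on low counts, edgeR called 5 PIPs lower in cob-6 and 6 in the double mutant, each against WT. Those fits called 1.36% and 4.54% of all genes. The median log2 fold change of the 13 PIPs was -0.55 in cob-6 and -0.55 for the double mutant, each against WT, beside 0.01 and 0.02 over all tested genes, with 12 and 11 of 13 negative. PIP2-8 was the exception in cob-6, and PIP2-6 and PIP2-8 in the double mutant. Without WT replicate 1 these medians were -0.87 and -0.81, with 6 and 7 PIPs called lower, and without WT replicate 2 they were -0.17 and -0.23. In sfr6-3 the median was -0.20, with 9 of 13 negative. It was -0.46 without WT replicate 1, with PIP2-1 called, and it turned to 0.11 without WT replicate 2, with 3 negative. Between the double mutant and sfr6-3 it was -0.29 with 11 negative, and between the double mutant and cob-6 it was -0.01.

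Among PIP1 genes, PIP1-2 and PIP1-3 were the highest. PIP1-2 stood at 663 and 933 RPKM in WT, 664 and 612 in cob-6, 862 and 622 in sfr6-3 and 572 and 543 in the double mutant. PIP1-3 stood at 237 and 373 in WT, 225 and 218 in cob-6, 309 and 258 in sfr6-3 and 182 and 177 in the double mutant. Both double mutant libraries lay below those of WT and of sfr6-3 for PIP1-3, with log2 fold changes of -0.80 ± 0.21 (SE, adjusted p = 0.106) and -0.60 ± 0.20 (adjusted p = 0.229). In the fit without WT replicate 1, edgeR called PIP1-3 lower in cob-6 at -0.87 ± 0.17 (adjusted p = 0.0381) and in the double mutant at -1.12 ± 0.17 (adjusted p = 0.00237), and PIP1-2 in the double mutant at -0.81 ± 0.19 (adjusted p = 0.0366). DESeq2 also called PIP1-3 in the double mutant (adjusted p = 0.00351). PIP1-5 stood at 191 and 269 in WT, 161 and 141 in cob-6, 245 and 173 in sfr6-3 and 208 and 203 in the double mutant. Its cob-6 libraries were the lowest, at -0.70 ± 0.20 against WT (adjusted p = 0.514), and it was called there without WT replicate 1 at -0.96 ± 0.20 (adjusted p = 0.0455). PIP1-1 (AT3G61430) ranged from 121 to 230.3 RPKM and PIP1-4 (AT4G00430) from 83.3 to 112, with adjusted p-values of 0.210 or above against WT in both. PIP1-1 was, without WT replicate 1, called lower in cob-6 at -0.90 ± 0.18 (adjusted p = 0.0425) and in the double mutant at -0.91 ± 0.18 (adjusted p = 0.0139).

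Among PIP2 genes, PIP2-4 (AT5G60660), a water channel of roots, was the only one called in the main fit. DESeq2 also called PIP2-2 against WT in cob-6 and PIP2-1, PIP2-2 and PIP2-3 in the double mutant, each lower. PIP2-4 stood at 15.3 and 22.4 RPKM in WT, 10.1 and 8.5 in cob-6, 32.4 and 27.6 in sfr6-3 and 9.03 and 8.31 in the double mutant. The sfr6-3 libraries were the highest, and the libraries of cob-6 and of the double mutant the lowest and overlapping. The double mutant was lower than sfr6-3 by a log2 fold change of -1.73 ± 0.22 (SE, adjusted p = 0.0124) and lower than WT by -1.14 ± 0.22 (adjusted p = 0.0337). In cob-6 against WT it was -1.09 ± 0.22 (adjusted p = 0.172), in sfr6-3 against WT 0.59 ± 0.21 (adjusted p = 0.707), and the interaction was -0.64 ± 0.31 (adjusted p = 0.556). Without WT replicate 1 the change against WT was -1.44 ± 0.22 (adjusted p = 0.00242), and in cob-6 it was -1.38 ± 0.22 (adjusted p = 0.0121). The call against WT was lost in a fit of only the genotypes compared (adjusted p = 0.156). It was also lost without WT replicate 2 (adjusted p = 0.319), either sfr6-3 library (0.0619 and 0.0608) or either double mutant library (0.0591 and 0.145). The call against sfr6-3 was lost without either sfr6-3 library (adjusted p = 0.154 and 0.0778) or double mutant replicate 2 (0.0768). The summed CASP level had its lowest mean in cob-6 and its highest in sfr6-3, although the libraries of sfr6-3 and WT overlap, and in the double mutant it was 52.9 and 56.8 RPKM. Its part in the result was not tested. In whole seedlings, fewer cells of a type and less RNA per cell cannot be told apart.

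PIP2-7 (AT4G35100), the highest PIP2 gene, stood at 679 and 938 RPKM in WT, 631 and 556 in cob-6, 853 and 617 in sfr6-3 and 666 and 586 in the double mutant. PIP2-6 stood at 196 and 221 in WT, 204 and 179 in cob-6, 215 and 178 in sfr6-3 and 207 and 262 in the double mutant. Neither passed the test in any comparison, and the libraries of PIP2-6 overlap between WT and both single mutants. PIP2-3 (AT2G37180), known as RD28, stood at 9.03 and 17.6 in WT, 4.98 and 11.1 in cob-6, 6.53 and 6.19 in sfr6-3 and 4.65 and 2.77 in the double mutant. The double mutant libraries were the lowest, with a log2 fold change of -1.86 ± 0.44 against WT (adjusted p = 0.0751), beside the shared reads noted for this pair. It was called in unique reads alone at -1.98 ± 0.42 (adjusted p = 0.0428), without WT replicate 1 at -2.30 ± 0.43 (adjusted p = 0.00839) and by DESeq2 (adjusted p = 0.000904). PIP2-2 ranged from 71.9 to 165 RPKM and PIP2-1 from 97.0 to 288, both highest in WT replicate 2. PIP2-1 was at -0.99 ± 0.24 in the double mutant against WT (adjusted p = 0.0935). PIP2-1 was called lower in each mutant without WT replicate 1, with an adjusted p of 0.0455 in cob-6, at -1.02 in sfr6-3 (adjusted p = 0.0369) and at -1.35 for the double mutant (adjusted p = 0.00225). PIP2-2 was then called in cob-6 at -1.18 (adjusted p = 0.00916) and for the double mutant at -1.04 (adjusted p = 0.00568). PIP2-5 and PIP2-8 ranged from 5.32 to 8.56 and from 10 to 16.2 RPKM.

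The TIPs held the largest changes of the family. The 7 tested TIPs had median log2 fold changes against WT of -0.60 in cob-6, -0.28 in sfr6-3 and -0.41 for the double mutant, and of 0.37 between the double mutant and cob-6. Without WT replicate 1 the medians against WT of the 8 TIPs then tested were -0.91, -0.63 and -0.36, and without WT replicate 2 they were -0.34, -0.07 and 0.13. In the main fit 6, 5 and 4 of the 7 TIPs were negative against WT, and 2 were called, both lower in the double mutant. DESeq2 called 3 lower in cob-6 (TIP1-1, TIP2-2 and TIP2-3), TIP2-2 in sfr6-3 and the same 2 as the main fit in the double mutant. For the double mutant it also called 2 TIPs higher and 1 lower against cob-6, and 1 lower against sfr6-3. Of all genes it called 4.72% and 2.33% there. Without a filter on low counts, edgeR called 3 TIPs lower in cob-6 and 2 in sfr6-3, each against WT. Between the double mutant and cob-6 it then called 2 TIPs higher and 2 lower. Those fits called 1.36%, 1.56% and 5.04% of all genes.

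TIP2-3 (AT5G47450), an ammonia-permeable channel of the root vacuole, stood at 13.2 and 37.1 RPKM in WT, 3.40 and 2.69 in cob-6, 18.2 and 9.12 in sfr6-3 and 1.56 and 0.479 in the double mutant. All 4 libraries with cob-6 lay below the other 4, and the double mutant was the lowest. Against WT it was lower by -4.72 ± 0.61 (SE, adjusted p = 0.00527), a 26.3-fold difference, and this call held in all 16 other settings, with an adjusted p of at most 0.0443. In cob-6 against WT it was -3.13 ± 0.55 (adjusted p = 0.0875), and in the double mutant against sfr6-3 it was -3.73 ± 0.60 (adjusted p = 0.0511). Without WT replicate 1 these were -5.31, -3.73 and -3.73, with adjusted p-values of 5.67e-05, 0.00148 and 0.00172. Without WT replicate 2 the change of the double mutant against WT was -3.72, and without double mutant replicate 1 or 2 it was -5.73 or -4.03. The interaction was -0.60 ± 0.78 (adjusted p = 0.849).

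TIP2-2 (AT4G17340), also known from roots, stood at 83.0 and 176 RPKM in WT, 81.1 and 56.7 in cob-6, 58.2 and 47.6 in sfr6-3 and 28.7 and 30.6 in the double mutant. The double mutant libraries lay below all others, and both single mutants below WT, although cob-6 replicate 1 was close to WT replicate 1. In unique reads these 2 libraries stood at 83.2 and 85.7 CPM. With the summed reads of the other 7 libraries taken off, WT replicate 1 stood at 110.3 CPM. Against WT the log2 fold change of the double mutant was -2.16 ± 0.31 (SE, adjusted p = 0.00829), a 4.47-fold difference. This call was lost without double mutant replicate 2 (adjusted p = 0.0593). Without WT replicate 1 the change was -2.63 (adjusted p = 2.10e-05), and without WT replicate 2 it was -1.46 (adjusted p = 0.00466). In sfr6-3 it was -1.39 ± 0.30 (adjusted p = 0.158), in cob-6 -1.01 ± 0.30 (adjusted p = 0.521), and between the double mutant and cob-6 -1.15 ± 0.30 (adjusted p = 0.0899). TIP2-2 was, without WT replicate 1, also called in sfr6-3 at -1.87 ± 0.21 (adjusted p = 0.000898) and in cob-6 at -1.48 ± 0.21 (adjusted p = 0.00432). The interaction was 0.24 ± 0.42 (adjusted p = 0.899). DESeq2 called TIP2-2 in each of the 3 mutants against WT.

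**Figure D4:**
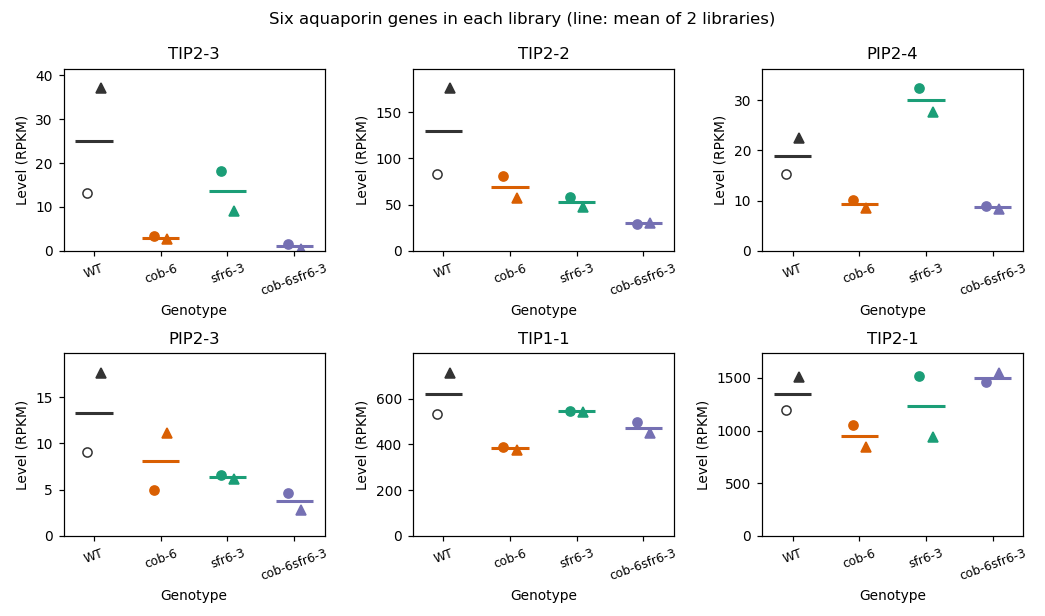
Level (RPKM) of 6 aquaporins in each library by genotype, with a line at the mean of 2 libraries and WT replicate 1 as an open circle. TIP2-3 is lower in all 4 libraries with cob-6, TIP2-2 is lowest in the double mutant, and PIP2-4 is highest in sfr6-3.

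TIP1-1 (AT2G36830), TIP2-1 (AT3G16240) and PIP1-5 had their lowest mean level in cob-6 without a call in the main fit. TIP1-1, a channel for water and hydrogen peroxide, stood at 532 and 712 RPKM in WT, 389 and 376 in cob-6, 547 and 543 in sfr6-3 and 496 and 449 in the double mutant. TIP2-1 stood at 1191 and 1513 in WT, 1054 and 844 in cob-6, 1518 and 943 in sfr6-3 and 1461 and 1547 in the double mutant. Both cob-6 libraries lay below WT in each gene. The cob-6 change against WT was -0.79 ± 0.17 for TIP1-1 (adjusted p = 0.242) and -0.60 ± 0.21 for TIP2-1 (adjusted p = 0.747), and the double mutant lay above cob-6 by 0.37 ± 0.17 (adjusted p = 0.306) and 0.72 ± 0.21 (adjusted p = 0.128). DESeq2 called TIP2-1 (adjusted p = 0.0128) and TIP4-1 (adjusted p = 0.0424) higher in the double mutant than in cob-6. Without WT replicate 1, TIP1-1 was called in cob-6 against WT at -1.02 ± 0.17 (adjusted p = 0.0139). TIP2-1 had the smallest interaction p of the family, at 0.95 ± 0.30 (adjusted p = 0.476). TIP1-2, the highest aquaporin, stood at 2131 and 3024 in WT, 2417 and 2084 in cob-6, 2204 and 1731 in sfr6-3 and 1933 and 2025 in the double mutant. TIP4-1 ranged from 12.4 to 26.8 RPKM and was highest in double mutant replicate 2, and TIP3-2, a seed gene, ranged from 0.325 to 1.17.

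**Figure D5:**
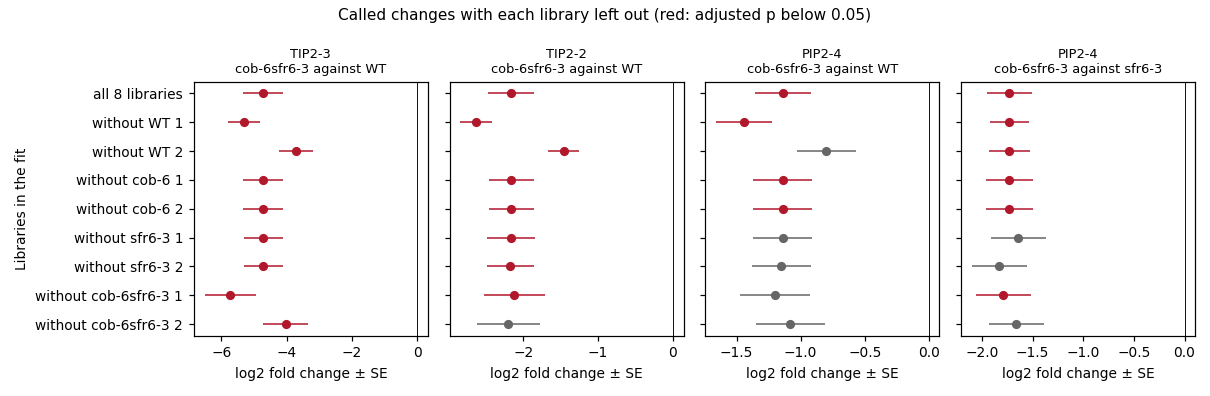
Log2 fold change with its standard error for the 4 called changes, with all 8 libraries and with each left out, in red where the adjusted p stays below 0.05, each panel on its own axis. TIP2-3 stays red in every fit, and PIP2-4 against WT turns grey in 5 of 8.

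The NIPs were low, and the main fit called none. Without a filter on low counts, edgeR called 1 NIP lower in the double mutant against WT and 1 against cob-6. Those fits called 4.54% and 5.04% of all genes. The NIP medians of the log2 fold change lay between -0.19 and 0.22 over the 6 comparisons of the main fit. Against WT, in cob-6, sfr6-3 and the double mutant, they were -0.28, -0.42 and -0.21 without WT replicate 1. Without WT replicate 2 they were 0.10, -0.10 and 0.25. NIP1-1 stood at 12.1 and 11.4 RPKM in WT, 18.7 and 10.7 in cob-6, 13.5 and 11.3 in sfr6-3 and 10.8 and 18.5 in the double mutant. NIP5-1 (AT4G10380), the boric acid channel of roots, stood at 9.77 and 9.96 in WT, 10.8 and 7.69 in cob-6, 9.60 and 8.08 in sfr6-3 and 8.48 and 14.6 in the double mutant. NIP6-1, a boric acid channel of the shoot, stood at 1.78 and 3.02 in WT, 4.03 and 2.92 in cob-6, 1.25 and 1.05 in sfr6-3 and 1.1 and 0.219 in the double mutant. Its 4 libraries with sfr6-3 lay below the other 4, at -2.42 ± 0.66 in the double mutant against cob-6 (adjusted p = 0.106). DESeq2 called that change (adjusted p = 0.00786). Without double mutant replicate 1 it was -3.96 in edgeR, where the 1 double mutant library left held 10 reads of NIP6-1. NIP6-1 overlaps AT1G80750, and strand use is not given. TIP2-1, TIP3-2, TIP5-1, NIP2-1 and SIP2-1 also overlap another gene. NIP1-2, NIP2-1, NIP3-1, NIP4-2 and NIP7-1 ranged from 7.34 to 13.3, 0.136 to 1.07, 0.367 to 1.68, 0.0311 to 0.448 and 0.126 to 0.665 RPKM.

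None of the 3 SIPs was called by edgeR. Their median log2 fold changes against WT were -0.07 in cob-6, 0.09 in sfr6-3 and 0.33 for the double mutant. Without WT replicate 1 these were -0.05, 0.10 and 0.36, and without WT replicate 2 they were -0.10, 0.11 and 0.29. SIP1-1 stood at 72.5 and 70.0 RPKM in WT, 71.2 and 75.5 in cob-6, 79.8 and 81.5 in sfr6-3 and 73.3 and 76.2 in the double mutant. SIP2-1 stood at 17.8 and 16.1 in WT, 15.2 and 19.1 in cob-6, 18.7 and 18.9 in sfr6-3 and 22.3 and 20.8 in the double mutant. SIP1-2 stood at 2.29 and 2.12 in WT, 1.78 and 1.35 in cob-6, 2.91 and 3.22 in sfr6-3 and 4.35 and 2.46 in the double mutant. The double mutant lay above cob-6 in SIP1-2 by 1.01 ± 0.26 (adjusted p = 0.0866), and DESeq2 called it (adjusted p = 0.0223), but 63.1% of its reads were unique, it overlaps AT5G18300, and strand use is not given.

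In the authors' deposited table of the double mutant against cob-6, a positive fold is higher in the double mutant. By the authors' deposited table, 6 of 35 aquaporins (17.1%) had p below 0.05, beside 3.18% of all 33602 genes, with folds of 1.65 for TIP2-1 (p = 0.000574), -2.23 for TIP2-2 (p = 0.000598), 1.42 for PIP1-5 (p = 0.0106), 1.29 for TIP1-1 (p = 0.0205), 1.71 for TIP4-1 (p = 0.0386) and 1.28 for PIP2-6 (p = 0.045). A further list of the authors, deposited with 147 genes that changed in cob-6 but did not in the double mutant, holds TIP1-1, TIP2-1 and PIP1-5, which are 2.04% of that list and 8.57% of the family. The list holds 0.437% of all genes in the authors' deposited table, and the criteria that made it are not known here. The 3.18% and 0.437% are shares of all 33602 genes, of which 21384 had enough reads for the main fit. Of the 35 aquaporins 31 had enough, so these shares do not compare like sets of genes.

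In all, 3 lists of genes tied to aquaporins or to the solutes and gradients they work with were counted beside them. Of 16 regulators of water channels, 7 borate exporters and 12 proton pumps, 0 were called in any comparison of the main fit. At most 3 of a list had an unadjusted p below 0.05 in 1 direction. DESeq2 called 2 regulators and 1 pump in the double mutant against WT, and 1 exporter and 1 pump against cob-6, beside 3.44% and 4.72% of all genes. The list medians lay between -0.30 and 0.12, beside 0.00 to 0.02 over all tested genes. RMA1, a ubiquitin ligase of PIP2 trafficking, stood at 13.7 and 18.6 RPKM in WT and 9.36 and 8.15 in the double mutant, with a log2 fold change of -0.91 ± 0.21 (adjusted p = 0.0717). XND1, a regulator of xylem, was at -4.67 ± 1.31 in the same comparison (adjusted p = 0.138). Its levels were low, at 0.547 and 1.19 RPKM in WT and 0.0409 and 0.0285 in the double mutant. BOR3 was at 0.49 ± 0.14 in the double mutant against sfr6-3 (adjusted p = 0.180) and BOR5 at -2.65 ± 0.87 against cob-6 (adjusted p = 0.164). BOR5 was also low, at 0.696 and 1.52 RPKM in cob-6 and 0.297 and 0.0646 in the double mutant. AHA4, a plasma membrane proton pump, was at 1.38 ± 0.35 in the double mutant against cob-6 (adjusted p = 0.0785) and AHA11 at -0.61 ± 0.18 against WT (adjusted p = 0.152).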

How the data were processed

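RNA of whole Arabidopsis seedlings was measured in 4 genotypes with 2 libraries each, grouped by sample titles. The authors deposited whole-number read counts per gene, total, unique and exon, and RPKM, per the file headers. RPKM equalled exon reads over exon length and gene reads within 0.1% for 100% of genes. The authors deposited a second table with a signed fold (treated as a score) of the double mutant against cob-6, with its p-value. The sources used here do not name the aligner, the counter, the use of strand or the build.

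Total gene reads were tested with edgeR 4.0.16 (quasi-likelihood, TMM, filterByExpr, 1 mean per genotype, 4 residual degrees of freedom) in R 4.3.3, with Benjamini-Hochberg adjustment across the 21384 tested genes in each comparison and a call at 0.05. Alternatives were DESeq2 1.42.0, other read types, scalings, filters, blocks and left-out libraries. The test was tested on simulated data. Between 2 genotypes it recovered 21 to 29 of 100 2-fold changes and 89 to 96 of 100 4-fold changes. For the interaction it recovered 8 and 54 of 100. False calls were 2 to 7 per comparison. Changes of 2-fold or less can thus be missed. The simulated libraries were independent with a common dispersion, unlike WT replicate 1. All 35 members were named, with values in every library for called members, for the 3 smallest p-values of each comparison and for the 2 highest members of PIP1, PIP2, TIP, NIP and SIP. Genes of the partner lists were named where called, otherwise the 2 smallest p-values of each list. Promoters and coding sequences were read from RefSeq TAIR10.1. The members and lists were chosen with earlier results of these data known.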

Additional observations from a re-analysis of the deposited data

How the results depend on the processing

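The direction of each of 21 named changes held in all 333 recalculations under other settings, of which 282 kept their side of the threshold, 10 lost it and 41 gained it. The 21 were the 3 smallest p-values of each comparison, with TIP1-1, TIP2-1 and PIP1-5 in the double mutant against cob-6. They were picked in these data and refitted on mostly the same libraries, so a kept direction is no separate support. Without WT replicate 2 the PIP median in sfr6-3 turned from -0.20 to 0.11, and the TIP median in the double mutant from -0.41 to 0.13. Counts of called aquaporins also moved, given here for cob-6, sfr6-3 and the double mutant (each against WT), then for the double mutant over cob-6 and over sfr6-3. Without a filter on low counts they were 8, 4, 9, 6 and 4 (beside 1.36%, 1.56%, 4.54%, 5.04% and 3.19% of all genes), and with DESeq2 5, 1, 7, 5 and 2. With the summed reads of the other 7 libraries taken off WT replicate 1, in unique reads, they were 3, 1, 6, 1 and 2 (beside 0.419%, 0.718%, 3.56%, 1.99% and 0.452%). With unique reads alone, 1 was called in cob-6 against WT, and the double mutant over sfr6-3 had 2. With only the genotypes compared, 2 were called against cob-6 and 2 against sfr6-3. The shares over all genes are not given for the fits in unique reads or of only the genotypes compared. Their counts are therefore not read as a result about aquaporins. Counts also moved with 1 library left out, and the highest against WT came without WT replicate 1. Such fits leave 1 library in a genotype, so their counts are not listed here. The interaction had 0 called aquaporins in every setting run. Counts over all tested genes also moved, for example from 19 to 356 in cob-6 against WT without the filter, and the cause was not tested.

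A fit with the replicate number as a block (replicate block) called 0, 0, 3, 0, 1 and 0 aquaporins. Same-numbered libraries did not deviate together (r between -0.0743 and 0.0494 across genes). This cannot show whether they shared growth or preparation, and the labels do not say. With 2 libraries per genotype, a lone library left by an omission is taken to vary like the other groups. Members under about 1 RPKM rest on few reads. Library depth bounds only counting error.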
